A study of Mus musculus with 7 samples.

Results

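Intragenic accessible sites away from gene ends were described in spleen regulatory T cells (Treg cells) of mice. They were the ATAC-seq peaks under 1000 bp wide, on assembled chromosomes, that overlapped a protein-coding gene and stayed clear of the 1 kb on either side of every protein-coding gene end. By that rule 21732 of the 50213 peaks (43.3%) were intragenic, against 11521 peaks at gene ends and 13836 peaks between genes within 100 kb of a gene end. The rule uses position and width only, so no measured value chose the sites. ATAC-seq reads come from DNA that a transposase can reach, and counts in a peak measure how accessible that DNA is. The cells came from chimeric mice whose marrow was a 1:1 mix of CD45.1+ marrow and marrow from a Foxp3Cre donor (WT) or a Foxp3CreOpa1fl/fl donor (Opa1 KO). Cells sorted as CD45.2+, CD45.1-, CD4+ and Foxp3-YFP+ were used, 4 WT and 3 Opa1 KO libraries. Cre follows Foxp3 in both groups, so the deletion of Opa1 depends on Foxp3 expression, and each Treg cell developed beside CD45.1+ cells that kept Opa1. Ages and sexes of the mice are not stated in the labels used here.

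Accessible sites inside genes are mostly candidate enhancers, where transcription factors bind and act on their own gene or on a neighbour, and some are alternative promoters from which shorter transcripts start. In Treg cells such sites include intronic elements of Foxp3 and Il2ra that keep these genes on. Opa1 remodels and fuses the inner membrane of mitochondria, and mitochondrial metabolism supplies cofactors to enzymes that modify chromatin. An intragenic peak shows where DNA is open, and does not show which gene it acts on.

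Some intragenic peaks lay over an annotated internal start of their own gene, and these were the sites for which sequence could be read. RefSeq start windows of build GRCm38.p6, the assembly that mm10 names, hold 250 bases before and 50 bases after each annotated start. Of the windows of protein-coding genes that lay inside a gene and clear of its ends, 1141 in 953 genes overlapped an intragenic peak and 2429 overlapped no peak. The windows under a peak were rich in CpG: the median window was 61.0% G and C and held 20 CpG, against 51.3% and 5 CpG for internal starts without a peak. At least 10 CpG were found in 78.6% of the former and in 25.8% of the latter. Starts at gene ends under a gene-end peak were alike, with 62.0% G and C and 23 CpG in the median window. Letters searched on both strands were CAGGAA (ETS), TGTGGT (RUNX), TGANTCA (AP-1), TGTTTAC (forkhead), CACGTG (E-box), TTCAAAG (TCF), TTCNNNGAA (STAT) and TGGAAA (NFAT). Matches were counted separately for each motif, so overlapping matches counted under both. The ETS letters stood in 29.0% of the windows under an intragenic peak, in 32.2% of internal windows with no peak and in 29.0% of all 21263 windows. For RUNX the shares were 13.0%, 18.4% and 14.97%, for AP-1 5.78%, 9.06% and 6.99%, and for NFAT 15.2%, 22.4% and 19.3%. The E-box letters, which hold a CpG, went the other way, with 9.20%, 4.61% and 7.84%. The forkhead letters stood in 2.45%, 3.38% and 3.01%, the TCF letters in 3.42%, 4.90% and 4.54%, and the STAT letters in 6.92%, 7.99% and 7.69%. A match is a run of letters and shows no binding. 6 windows are printed 5′ to 3′ on the strand of the gene, with every match in capitals and the annotated start at base 251. Fer, Arhgap29 and Myo7a are shown because their peaks had the smallest p of the intragenic peaks at internal starts, a choice made after the values were seen. Ikzf1, Runx1 and Prdm1 are shown as internal starts of lymphocyte transcription factors. The Fer window (chr17:63863731-63864030, plus strand) held 31 CpG and none of the motifs. The Arhgap29 window (chr3:121967556-121967855, plus strand) held 1 ETS and 1 RUNX match, as did the Myo7a window (chr7:98109199-98109498, minus strand). The Ikzf1 window (chr11:11689927-11690226, plus strand) held 3 ETS matches and 1 STAT match with 2 CpG. The Runx1 window (chr16:92697280-92697579, minus strand) held 35 CpG and 1 NFAT match. The Prdm1 window (chr10:44458699-44458998, minus strand) held 1 forkhead and 1 AP-1 match with 20 CpG.
Fer: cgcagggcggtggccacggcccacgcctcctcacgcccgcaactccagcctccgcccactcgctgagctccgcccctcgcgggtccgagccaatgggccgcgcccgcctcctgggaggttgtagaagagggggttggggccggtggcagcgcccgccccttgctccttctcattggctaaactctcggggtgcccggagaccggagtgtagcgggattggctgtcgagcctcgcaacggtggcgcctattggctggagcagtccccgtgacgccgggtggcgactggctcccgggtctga
Arhgap29: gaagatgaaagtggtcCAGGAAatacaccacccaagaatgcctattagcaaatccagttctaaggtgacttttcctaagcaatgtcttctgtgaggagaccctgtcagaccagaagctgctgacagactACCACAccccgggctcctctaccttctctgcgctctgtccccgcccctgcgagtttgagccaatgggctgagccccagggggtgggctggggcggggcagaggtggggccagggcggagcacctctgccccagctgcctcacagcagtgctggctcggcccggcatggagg
Myo7a: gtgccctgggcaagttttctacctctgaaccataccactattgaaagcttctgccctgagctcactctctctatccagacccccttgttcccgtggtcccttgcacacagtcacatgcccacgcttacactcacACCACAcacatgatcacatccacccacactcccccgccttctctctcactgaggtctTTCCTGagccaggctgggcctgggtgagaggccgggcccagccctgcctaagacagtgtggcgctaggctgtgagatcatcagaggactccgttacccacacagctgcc
Ikzf1: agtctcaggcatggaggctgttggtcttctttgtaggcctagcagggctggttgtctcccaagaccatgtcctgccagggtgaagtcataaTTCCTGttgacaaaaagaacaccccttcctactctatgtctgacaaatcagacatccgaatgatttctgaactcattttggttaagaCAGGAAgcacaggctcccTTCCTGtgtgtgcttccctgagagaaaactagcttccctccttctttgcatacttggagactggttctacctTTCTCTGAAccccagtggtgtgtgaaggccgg
Runx1: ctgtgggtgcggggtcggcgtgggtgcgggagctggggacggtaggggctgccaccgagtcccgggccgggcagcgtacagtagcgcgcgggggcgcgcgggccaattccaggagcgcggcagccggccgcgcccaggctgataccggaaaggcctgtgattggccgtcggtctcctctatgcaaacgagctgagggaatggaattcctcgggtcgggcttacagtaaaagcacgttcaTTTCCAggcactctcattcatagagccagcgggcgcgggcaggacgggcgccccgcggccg
Prdm1: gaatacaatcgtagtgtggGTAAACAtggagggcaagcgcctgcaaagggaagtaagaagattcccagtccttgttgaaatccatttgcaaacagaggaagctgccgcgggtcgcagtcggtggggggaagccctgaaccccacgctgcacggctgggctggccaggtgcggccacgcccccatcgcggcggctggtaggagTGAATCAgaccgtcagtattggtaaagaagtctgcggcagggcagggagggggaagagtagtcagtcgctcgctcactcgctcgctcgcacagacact

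Library totals in peaks ran from 1534394 to 3384325 counts, with KO replicate 1 the deepest and WT replicate 2 the shallowest, and the median peak had 14 to 30 counts. Levels are given as CPM, the count scaled to a common library total, and the filter on low counts asks for about 10 counts, which is 3.08 CPM in the deepest library and 6.77 CPM in the shallowest. WT replicates 2 and 3 were within sampling noise of each other at 36418 peaks (chi-square p = 0.111, with 1.01 per degree of freedom) and differed slightly more over the 11332 most abundant (p = 0.0385), and they were the closest pair among the WT libraries. They were counted as 1 sample in each mean ± SD, so that n = 3 in WT as in KO, and entered the tests as separate libraries. The design text gives 4 WT and 3 KO mice. Treg markers were present: 7 of 8 Treg genes held 45 intragenic peaks, and all peaks of the list summed to 1256 to 1333 CPM in the WT libraries and 1293 to 1368 in the KO libraries. The B cell markers Cd79a, Cd79b, Ms4a1 and Cd22 had no peak, and the B cell list summed to 175 to 201 CPM in the WT libraries and 193 to 216 in the KO libraries. The myeloid markers Csf1r, Lyz2, Adgre1 and Fcgr3 had no peak, and that list summed to 43.2 to 54.2 CPM in the WT libraries and 32.9 to 39.4 in the KO libraries. CD8 T and NK cell markers summed to 34.8 to 43.6 CPM in the WT libraries and 41.6 to 45.3 in the KO libraries. The part of such cells in the results was not tested, and in bulk libraries fewer open cells and less open DNA per cell cannot be told apart.

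The intragenic peaks were narrow and of low level. Their median width was 299 bp, and their median distance to a gene end was 17.7 kb, with quartiles of 6.97 and 41.4 kb. The median level was 7.86 CPM (quartiles 4.20 and 16.3), against 23.7 CPM for gene-end peaks and 7.496 CPM for intergenic peaks. By distance, the median fell from 10.2 CPM at 1 to 5 kb from a gene end to 7.54 CPM at 5 to 20 kb and 6.57 CPM beyond 100 kb. The filter kept 15503 of the intragenic peaks (71.3%) and removed 6229. At the 1 kb limit of the rule the level hardly differed. The 364 intragenic peaks within 200 bp of that limit had a median of 11.4 CPM, and the 408 gene-end peaks just outside it had 11.1 CPM. At the width limit it was somewhat higher outside the rule. The 72 widest intragenic peaks, of 900 bp or more, had a median of 50.6 CPM, and 38 peaks inside genes that were up to 100 bp too wide for the rule had 60.4 CPM.

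They were spread over 7191 genes and gathered in a few long ones. Of the genes that alone hosted a peak, 3180 of 7042 held 1 intragenic peak, and 415 genes with at least 10 held 29.3% of the peaks. Foxp1, a forkhead factor of lymphocyte quiescence, held the most with 52, followed by Wwox, an oxidoreductase, with 38, Inpp4b, a phosphoinositide phosphatase, and Akap13, a kinase anchor, with 37 each. Lpp, Tox and Bach2 followed with 35. Tox is a nuclear factor of T cell development and Bach2 a repressor that holds lymphocytes in a resting state. The number of peaks rose with gene length (Pearson correlation 0.53 and Spearman rank correlation 0.52 on log scales across 7042 genes, which are not independent). Relative to length Akna was densest, with 12 peaks or 27.3 per 100 kb, then Cytip, a cytohesin partner of lymphocytes, with 21.1 and Mdfic with 20.8. Nrip1, which reappears below, held 19.7 per 100 kb. Along genes of at least 20 kb with a known strand (15707 peaks), the stretch nearest the start, of 10 equal ones, held 11.0% of the peaks at a median of 10.7 CPM and the stretch farthest from it 7.74% at 6.26 CPM.

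Internal starts stood out by level. The 1013 intragenic peaks (4.66%) over an annotated internal start of their own gene had a median of 24.8 CPM, close to the 23.7 CPM of gene-end peaks, and the other 20719 had 7.56 CPM. Among windows with 0 to 4 CpG the peak had a median of 14.1 CPM, with 5 to 9 CpG 17.1, with 10 to 19 CpG 25.6 and with 20 or more 33.1 CPM. The interquartile ranges of these groups overlapped. Of the 5 intragenic peaks with the highest level, the Morf4l2 peak, from 251 to 276 CPM in the WT libraries and from 266 to 313 in the KO libraries, lay at such a start. The highest was in Zfp446, which encodes a zinc finger protein, with 321, 340, 320 and 291 CPM in WT replicates 1 to 4 and 369, 397 and 367 in KO replicates 1 to 3. Its log2 fold change was 0.25 (standard error 0.08, adjusted p = 0.237) although the groups did not overlap. The others, in Uggt2, Pcmtd1 and Slc39a10, had log2 fold changes between -0.02 and 0.11, with adjusted p from 0.688 to 0.974.

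The comparison of KO with WT asked how loss of Opa1 altered accessibility at these sites. Of 15503 intragenic peaks tested, 12 changed (edgeR, adjusted p under 0.05), of which 5 were higher and 7 lower in KO. That is 0.0774% of them, against 0.0867% of all 38041 peaks tested (0.0473% higher and 0.0394% lower). An unadjusted p under 0.05 was reached by 1464 intragenic peaks (9.44%, all peaks 9.47%), and the 2 groups did not overlap at 1433 (9.24%, all peaks 9.36%). These shares were near those of all peaks. The median log2 fold change was -0.01, and 90% of the values lay between -0.76 and 0.62. The split by direction moved with the fit. With total counts as the only scaling there were again 12 calls, 10 of them shared, but 3 were higher and 9 lower, and with loess offsets 3 were higher and 10 lower. With limma-voom 13 were higher and 9 lower, and without WT replicate 2 it was 8 and 6.

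**Figure D1:**
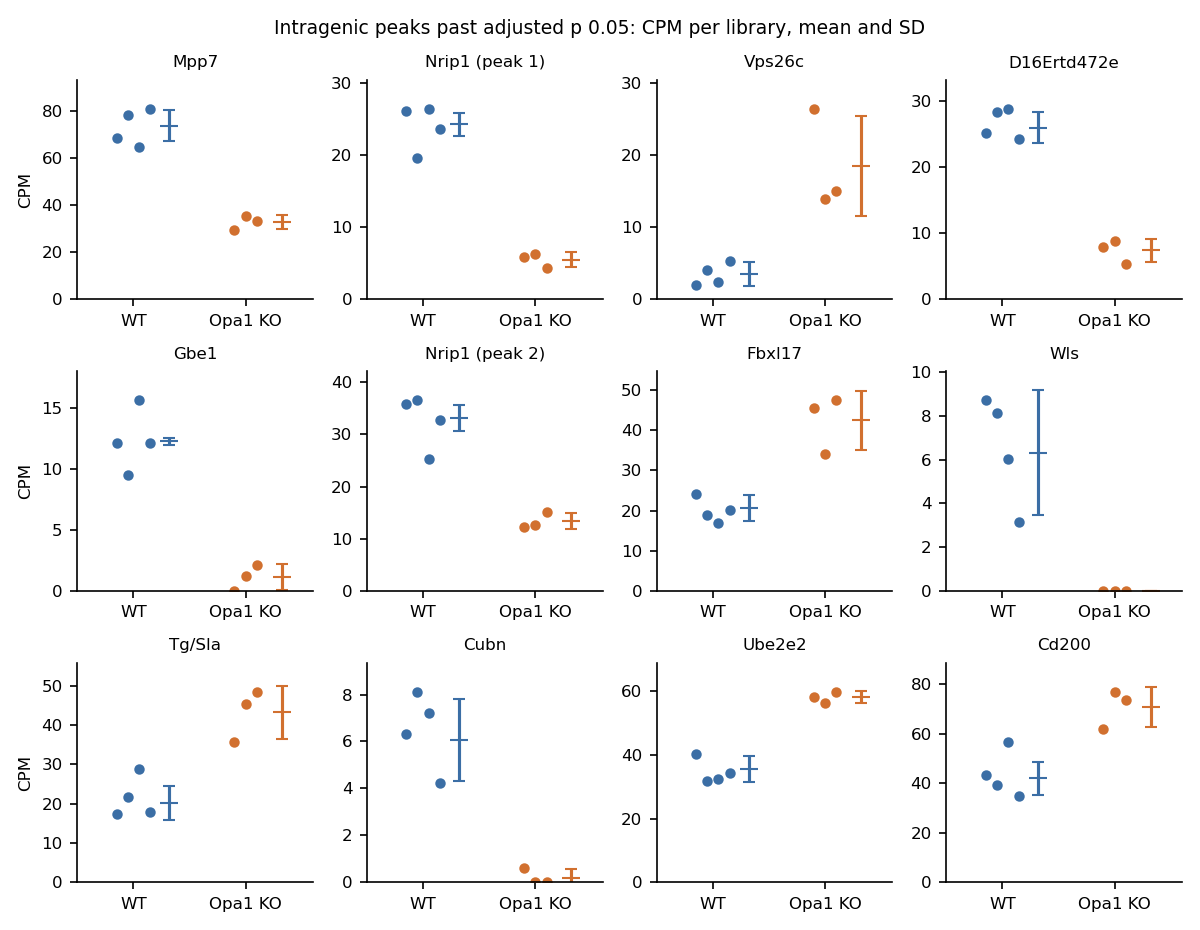
Level in CPM of each of the 12 intragenic peaks that changed, 1 panel a peak, with a point per library (WT left, Opa1 KO right) and the mean with its SD beside them (WT replicates 2 and 3 averaged as 1 sample, n = 3 in both genotypes). Peak 1 of Nrip1 starts at 76337478 and peak 2 at 76336924; in every panel the WT and KO points do not overlap.

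Mpp7 and chromosome 16 held the clearest losses. The peak inside Mpp7, a scaffold protein of cell polarity (chromosome 18, 7608818 to 7609449), had 68.8, 78.5, 65.0 and 81.1 CPM in WT replicates 1 to 4 and 29.6, 35.4 and 33.4 in KO replicates 1 to 3. Its log2 fold change was -1.18 (standard error 0.16, adjusted p = 5.32e-06). The other 2 tested intragenic peaks of the gene had log2 fold changes of -1.10 and -0.60, and the peak at the end of Mpp7 had 178 ± 10.2 CPM in the WT libraries and 134 ± 15.8 in the KO libraries, a log2 fold change of -0.41 (adjusted p = 0.0598). None of these 3 passed the threshold, though the end peak did in 6 of 16 alternative fits.

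Nrip1 encodes a corepressor of nuclear receptors and held called losses beside uncalled shifts in both directions. Its peak from 76337478 to 76337793 on chromosome 16 had 26.2, 19.6, 26.5 and 23.7 CPM in the WT libraries and 5.85, 6.32 and 4.31 in the KO libraries, a log2 fold change of -2.11 (standard error 0.32, adjusted p = 5.73e-05). The neighbouring peak from 76336924 to 76337285 had 35.8, 36.6, 25.3 and 32.7 CPM in the WT libraries and 12.3, 12.6 and 15.1 in the KO libraries, a log2 fold change of -1.29 (standard error 0.24, adjusted p = 0.0048). Each library of KO was below each library of WT at both sites. They lie 41.9% and 42.5% of the way along the gene. Of the 16 tested Nrip1 peaks other than the first site, 10 were above 0. The largest gain had a log2 fold change of 1.20 (edgeR, unadjusted p = 0.000478) and another 0.90 (0.00909). A further loss had -0.93 (0.00227), and none of these was called. The peak at the end of Nrip1 had 134, 147, 129 and 139 CPM in the WT libraries and 143, 140 and 138 in the KO libraries (log2 fold change 0.04, adjusted p = 0.951). The call of the second site was lost without KO replicate 1 (adjusted p = 0.0896).

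D16Ertd472e and Gbe1 held the other losses on chromosome 16. The D16Ertd472e peak (78547406 to 78547732) had 25.2, 28.4, 28.9 and 24.2 CPM in the WT libraries and 8.01, 8.85 and 5.39 in the KO libraries, a log2 fold change of -1.83 (standard error 0.29, adjusted p = 0.000182). Gbe1 encodes the branching enzyme of glycogen, and its peak (70331843 to 70332224) had 12.1, 9.48, 15.7 and 12.1 CPM in the WT libraries and 0, 1.26 and 2.16 in the KO libraries (adjusted p = 0.000235, and 0.0924 with limma-voom, where the call was lost). KO held 6 counts there, 3 read pairs if both mates were counted, and WT was 13.8 times higher with a 95% counting interval of 4.42 to 69.5. None of the other peaks of these genes was called. The 4 other tested Gbe1 peaks were all above 0, from 0.20 to 0.90 on the log2 scale, and the peaks at the ends of Gbe1 and D16Ertd472e had log2 fold changes of 0.10 and 0.25 (adjusted p = 0.809 and 0.386).

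Vps26c, a subunit of a complex that recycles membrane proteins from endosomes, had the largest gain. Its only intragenic peak (chromosome 16, 94510036 to 94510367) had 1.94, 4.06, 2.41 and 5.27 CPM in the WT libraries and 26.5, 13.9 and 15.1 in the KO libraries. The log2 fold change was 2.47 (standard error 0.39, adjusted p = 0.000143), and without KO replicate 1, the highest library, the adjusted p was 0.0913. At its end the gene had 102, 121, 105 and 104 CPM in the WT libraries and 124, 128 and 88.5 in the KO libraries (log2 fold change 0.08, adjusted p = 0.888). Cd200 encodes a surface protein whose receptor restrains myeloid cells. Its peak (chromosome 16, 45389746 to 45390183) had 43.6, 39.3, 56.6 and 34.8 CPM in the WT libraries and 61.9, 77.1 and 73.9 in the KO libraries, a log2 fold change of 0.69 (standard error 0.16, adjusted p = 0.0454). This was the weakest of the 12 calls and was lost in 6 of the 7 fits that left out 1 library, all but that without WT replicate 3 (adjusted p from 0.068 to 0.221), and with DESeq2, total counts, loess offsets and the replicate block (0.0564 to 0.276). The other Cd200 peak in the gene was not called (log2 fold change -0.76, unadjusted p = 0.0355), and the end peak had -0.02.

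The remaining gains were of moderate size, and their calls were lost in 3 to 11 of 16 alternative fits. The Fbxl17 peak (chromosome 17, 63362115 to 63362557) lay in a gene for an F-box subunit of ubiquitin ligases and had 24.2, 18.95, 16.9 and 20.02 CPM in the WT libraries and 45.6, 34.1 and 47.5 in the KO libraries. Its log2 fold change was 1.08 (standard error 0.21, adjusted p = 0.00562), and the call was lost without KO replicate 1 (0.109) or 3 (0.0931), and with the replicate block (0.0774). Of the 12 other tested peaks in Fbxl17, 9 were above 0. Tg, the thyroid hormone precursor, and Sla, an adaptor that dampens T cell receptor signalling, overlap on chromosome 15 and share the peak from 66789019 to 66789443. That peak had 17.4, 21.7, 28.9 and 17.9 CPM in the WT libraries and 35.7, 45.5 and 48.5 in the KO libraries, a log2 fold change of 1.00 (standard error 0.21, adjusted p = 0.0166). Its call was lost without WT replicate 1 or 4 or KO replicate 2 or 3 (adjusted p from 0.0647 to 0.197), and with the replicate block (0.124). Ube2e2 encodes a ubiquitin-conjugating enzyme, and its peak (chromosome 14, 18670692 to 18671094) had 40.2, 31.8, 32.5 and 34.3 CPM in the WT libraries and 58.2, 56.2 and 59.9 in the KO libraries. The log2 fold change of 0.74 (standard error 0.17, adjusted p = 0.0432) did not pass in any of the 7 fits without 1 library (0.0586 to 0.197), nor with total counts, loess offsets, the replicate block or WT replicates 2 and 3 summed (0.0526 to 0.189).

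Wls and Cubn held sites with few counts in the WT libraries and almost none in the KO libraries. The Wls peak (chromosome 3, 159869713 to 159870037) lies in the gene of the carrier that brings Wnt proteins to the cell surface. It had 8.72, 8.12, 6.02 and 3.16 CPM in the WT libraries and 0 in each KO library. Against a floor of 6 counts over the KO group, 0.898 CPM, KO was at least 7.04-fold lower (adjusted p = 0.00575, lost without KO replicate 1 at 0.112 or 3 at 0.0663). Only 10 of 16 alternative fits gave this peak an adjusted p. Cubn encodes an endocytic receptor of kidney and gut, and its peak (chromosome 2, 13429903 to 13430277) had 6.30, 8.12, 7.23 and 4.21 CPM in the WT libraries and 0.616, 0 and 0 in the KO libraries. With 2 counts in the KO libraries the WT to KO ratio was 20.7 (95% counting interval 3.35 to 855, adjusted p = 0.0413), and the call was lost in 8 of 10 alternative fits: without WT replicate 4 or any 1 KO library (0.0588 to 0.272), and with DESeq2, loess offsets, limma-voom or the replicate block (0.0772 to 0.126). No other peak of these genes was called: 3 of 3 other tested Wls peaks and 4 of 7 other Cubn peaks were above 0. Reads amplified by PCR and lacking molecular identifiers can be copies of 1 molecule, so these intervals and the floor cover counting error only. The Wls, Cubn and Gbe1 peaks passed the filter on low counts through the WT libraries alone, and the Vps26c peak through the KO libraries alone. Their fold changes and p therefore belong to sites kept because 1 group was high.

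Chromosome 16, which carries Opa1 (29579281 to 29663127), held 6 of the 12 calls among 693 intragenic peaks tested, 0.866%, against 6 of 14810 (0.0405%) elsewhere. An unadjusted p under 0.01 was reached by 41 of those 693 (5.92%) and by 2.65% of intragenic peaks on other chromosomes. Over all tested peaks of the genome, chromosome 16 included, it was 2.76%. Peaks of chromosome 16 that were not intragenic held 7 calls among 890 tested, and 3.82% of them had such a p. The excess of calls was thus not particular to the intragenic peaks of the chromosome. The segment that holds Opa1 had few of them. From 20 to 40 Mb, where Opa1 lies, 3 of 185 intragenic peaks (1.62%) had such a p and none was called. From 40 to 60 Mb it was 15 of 209 (7.18%), and from 60 to 80 Mb 13 of 61 (21.3%) in 8 genes, 4 of them called. From 80 to 100 Mb it was 8 of 133 (6.02%), and from 0 to 20 Mb 2 of 105 (1.905%). Among other peaks of the chromosome the share was likewise highest from 60 to 80 Mb, with 14 of 121 (11.6%), and lowest from 20 to 40 Mb, with 1 of 223 (0.448%). Between these ends the order differed, with 2.51% from 40 to 60 Mb and 5.95% from 80 to 100 Mb. The called intragenic peaks lay between 15.8 and 64.9 Mb from Opa1, and both gains and losses occurred. The segments were set after the values were seen. In 16 alternative fits the share from 60 to 80 Mb lay between 13.1% and 22.7%, and that outside chromosome 16 between 1.72% and 3.99%. Genotype and any other difference between the donors on this chromosome cannot be told apart.

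**Figure D2:**
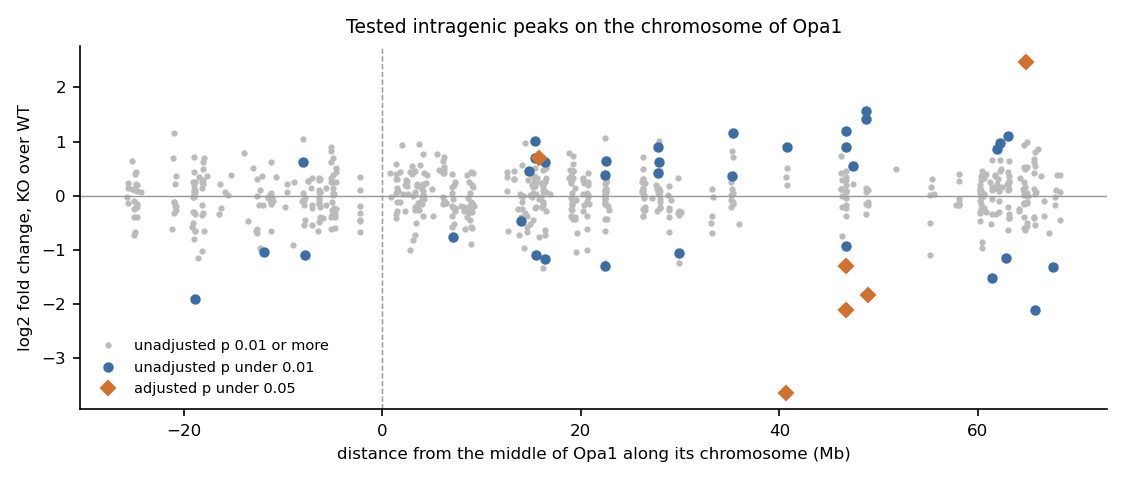
Log2 fold change (KO over WT) of the 693 tested intragenic peaks on the chromosome of Opa1 against their distance from the middle of Opa1 in Mb (dashed line at 0). Grey points have an unadjusted p of 0.01 or more, blue points a smaller one and orange diamonds are the 6 called peaks, all on the side of larger positions and between 15.8 and 64.9 Mb from Opa1.

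As a class, intragenic peaks took a slightly smaller share of the reads in the KO libraries, while their ratio to intergenic counts was slightly higher. They held 30.6%, 30.2%, 30.6% and 30.5% of the counts of WT replicates 1 to 4 and 30.2%, 30.0% and 29.9% of KO replicates 1 to 3. The groups did not overlap, although WT replicate 2 (30.24%) was close to KO replicate 1 (30.19%). The difference of -0.436 percentage points had an exact two-sided permutation p of 0.0571, the smallest that 4 against 3 libraries can give, and 0.0571 after adjustment over the 2 class measures. The log2 ratio of intragenic to gene-end counts was -0.51, -0.56, -0.53 and -0.54 in the WT libraries and -0.57, -0.58 and -0.60 in the KO libraries, a difference of -0.05 (exact permutation p = 0.0571). Gene-end peaks took 44.1% ± 0.327 in the WT libraries and 45.0% ± 0.289 in the KO libraries (SD, n = 3), and intergenic peaks 18.3% ± 0.168 and 17.7% ± 0.148. The log2 ratio of intragenic to intergenic counts went the other way. It was 0.730, 0.745, 0.745 and 0.747 in the WT libraries and 0.770, 0.755 and 0.771 in the KO libraries, a difference of 0.023 (exact permutation p = 0.0571). This ratio was not among the 2 class measures adjusted together. With the share taken at sites more than 5 kb from a gene end, the groups overlapped (difference -0.376, exact permutation p = 0.114).

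**Figure D3:**
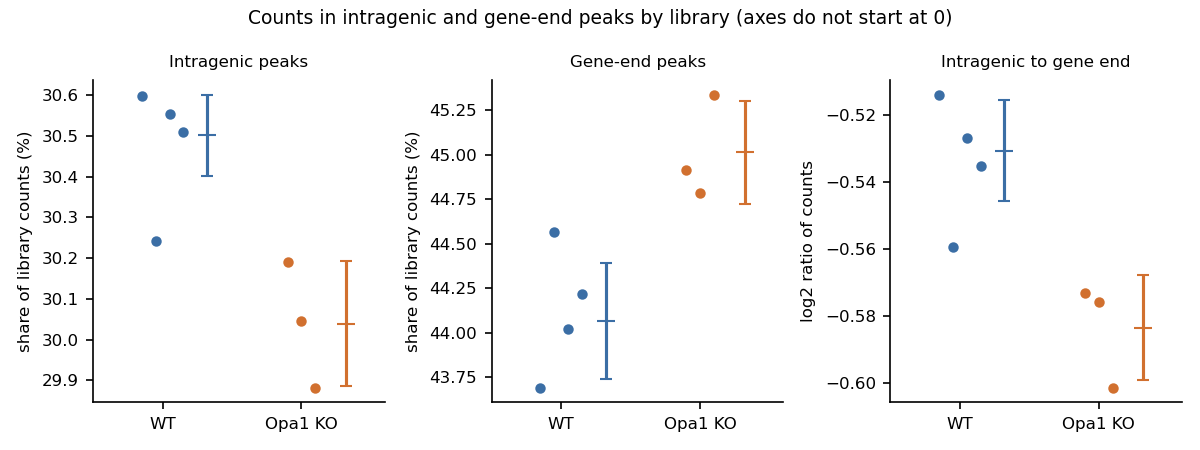
Share of library counts in intragenic peaks and in gene-end peaks (%) and the log2 ratio of the former to the latter, a point per library with mean and SD (n = 3 in both genotypes, WT replicates 2 and 3 averaged). Intragenic shares were 30.2% to 30.6% in the WT libraries and 29.9% to 30.2% in the KO libraries, and the vertical axes do not start at 0.

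Fold changes of single peaks varied with their level, and whether level accounts for the difference in shares was not tested. In 5 classes of equal size by mean CPM, the median log2 fold change of intragenic peaks was -0.08, -0.07, -0.04, -0.00 and 0.05 from the lowest to the highest. Gene-end peaks are mostly of high level, and in 5 such classes set over all tested peaks they followed the same course. In the lowest of these the medians were -0.08 for intragenic and -0.11 for gene-end peaks, and in the next -0.07 and -0.05. In the middle one they were -0.02 and -0.01, in the fourth 0.01 and 0.03, and in the highest 0.06 and 0.06. With loess offsets, which remove a trend of fold change on level, the median over all levels was 0.01 for both classes, and -0.02 for intergenic peaks. These offsets were fitted to the same peaks, and shares of counts were not recomputed with them. KO replicate 1 was the deepest library, and the part of depth in the trend on level was not tested. The share of intragenic peaks with an unadjusted p under 0.05 rose with level, from 6.45% in the lowest class to 13.3% in the highest, where standard errors were smaller.

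**Figure D4:**
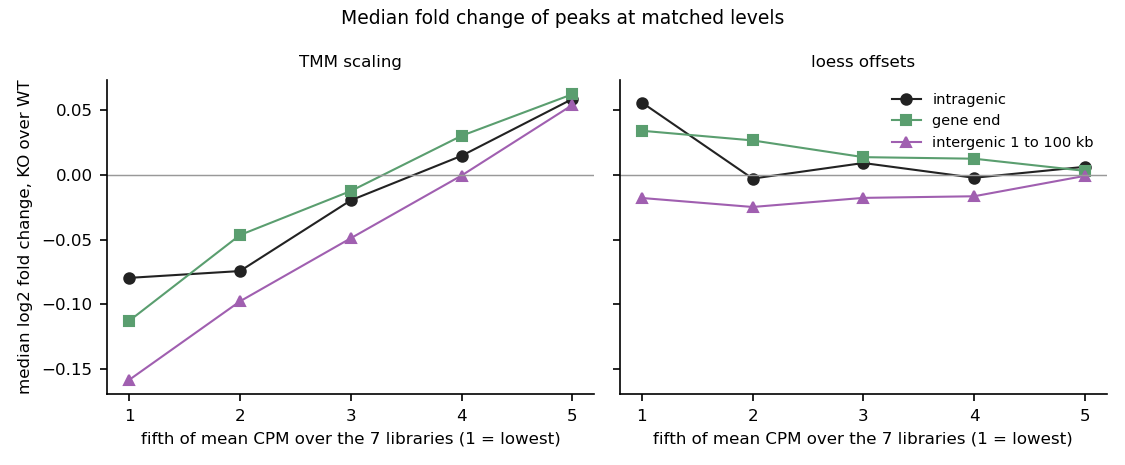
Median log2 fold change (KO over WT) of intragenic, gene-end and intergenic peaks in 5 classes of mean CPM set over all tested peaks, with TMM scaling on the left and loess offsets on the right. With TMM all 3 kinds rise from below 0 to 0.05 or 0.06, and with loess offsets intragenic and gene-end medians lie between -0.00 and 0.06.

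None of the 931 tested peaks at internal starts was called, where 0.0867% of all peaks were, so the absence is not read as a difference. Of the 931, 75 had an unadjusted p under 0.05 (8.06%, all peaks 9.47%), and the median log2 fold change was 0.03. The 3 with the smallest p were those whose windows are printed, and all were lower in KO by the fitted value without passing the threshold. The peak at the start within Fer, a tyrosine kinase of cell adhesion, had 37.8, 44.7, 32.5 and 38.5 CPM in the WT libraries and 14.2, 22.8 and 24.8 in the KO libraries, a log2 fold change of -0.94 (standard error 0.22, adjusted p = 0.0534). The peak within Arhgap29, a GTPase-activating protein, had 55.2, 65.0, 61.4 and 45.3 CPM in the WT libraries and 28.3, 39.2 and 37.2 in the KO libraries (log2 fold change -0.72, standard error 0.17, adjusted p = 0.064). That within Myo7a, an unconventional myosin, had 45.5, 12.2, 26.5 and 29.5 CPM in the WT libraries and 14.5, 12.6 and 12.9 in the KO libraries, so its groups overlapped at WT replicate 2 (log2 fold change -1.10, standard error 0.28, adjusted p = 0.0831). The Fer peak passed in 6 of 16 alternative fits, the Arhgap29 peak in 5 and the Myo7a peak in 4.

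Adding the counts of all intragenic peaks of a gene gave more calls. Of 5852 genes tested, 32 changed (0.547%), 17 higher (0.29%) and 15 lower (0.256%) in the KO libraries, and 648 had an unadjusted p under 0.05 (11.1%). Only Mpp7 and Vps26c also held a peak called on its own. Of the 32 genes, 6 held 1 intragenic peak (Vps26c, Rrp1, Fer, Spice1, 9930021J03Rik and Zfp446), so the sum repeats that peak's counts. The number of features tested, the spread estimate and the library scaling differ, the last being set anew on the summed intragenic counts. The log2 fold change of Zfp446 was 0.25 as a peak and 0.28 as a sum, and that of Fer -0.94 and -0.91. Another 8 of the 32 genes held at least 10 peaks, and 4 lay on chromosome 16 (Vps26c, Cd200r3, Spice1 and Map3k13). The share of that chromosome among all genes tested was not counted. Values are CPM over the counts summed per gene, a scale of its own. The calls were fragile: without KO replicate 3 there were 3, without WT replicate 1 5, and with DESeq2 12, and only Mpp7 and Vps26c passed in every alternative fit that gave them a value. For Vps26c this was 12 of 13 fits, and its sum passed the filter on low counts through the KO libraries alone. The same counts, tested as a peak, lost the call without KO replicate 1 (adjusted p = 0.0913), so the sum adds no separate evidence.

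**Figure D5:**
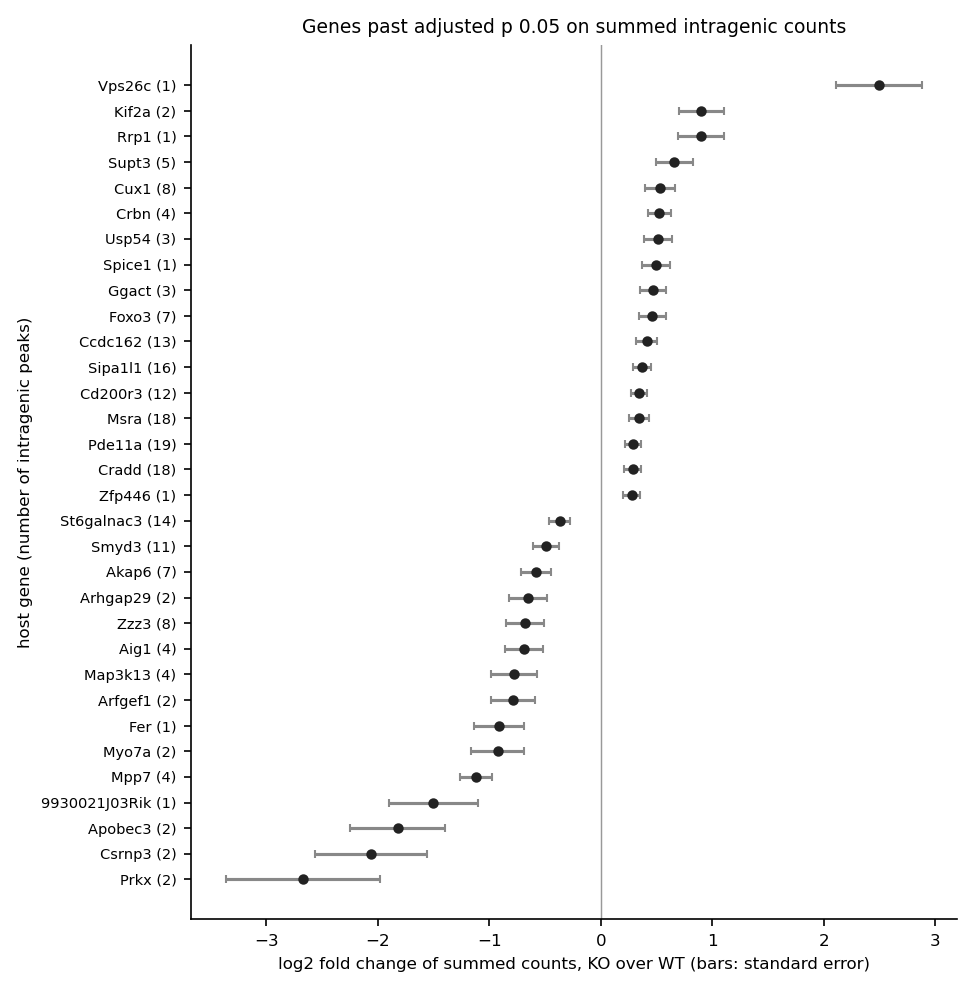
Log2 fold change (KO over WT, bars are standard errors) of summed intragenic counts for the 32 genes that changed, ordered by size, with the number of intragenic peaks of each gene in brackets. The 17 higher genes run from Zfp446 (0.28) to Vps26c (2.50) and the 15 lower ones from St6galnac3 (-0.37) to Prkx (-2.67). Prkx had only 10, 12, 10 and 12 counts in WT replicates 1 to 4 and 2 in each KO library. It passed the filter on low counts through the WT libraries alone, and its call was lost in 6 of the 7 alternative fits that gave it a value.

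Genes called higher included several with more than 1 site. Crbn encodes the substrate receptor of the ubiquitin ligase that thalidomide binds. It had 365, 331, 394 and 361 CPM over 4 peaks in the WT libraries and 580, 508 and 468 in the KO libraries, a log2 fold change of 0.52 (standard error 0.11, adjusted p = 0.0037, and 0.145 without KO replicate 1), with all 4 peaks above 0. Cd200r3 belongs to the family of CD200 receptors and lies near Cd200 on chromosome 16 (44943596 to 45058365). On that chromosome genotype and other differences between the donors cannot be told apart. The 12 peaks of Cd200r3 summed to 999, 1123, 913 and 991 CPM in the WT libraries and 1259, 1256 and 1315 in the KO libraries. Its log2 fold change was 0.34 (standard error 0.07, adjusted p = 0.01, and 0.0944 without KO replicate 3), with 10 of 11 tested peaks above 0. Sipa1l1, which switches off Rap GTPases, held 16 peaks and rose by 0.37 (adjusted p = 0.0162), and Pde11a, a cyclic nucleotide phosphodiesterase, held 19 and rose by 0.29 (0.0354). Kif2a, a kinesin that shortens microtubules, Rrp1, a ribosome assembly factor, and Ccdc162 rose by 0.90, 0.90 and 0.41 (adjusted p = 0.0162, 0.0192 and 0.0192). Ggact and Usp54 rose by 0.47 and 0.51 (0.0333 and 0.0351). Sipa1l1 was lost without WT replicate 4, KO replicate 1 or KO replicate 3 (0.0944 to 0.148), and each of the other 6 in at least 3 fits without 1 library. Foxo3, a forkhead factor of T cell quiescence that falls outside the rule for named genes and was chosen after its values were seen, held 7 peaks with 302, 324, 287 and 226 CPM in the WT libraries and 377, 385 and 413 in the KO libraries. Its log2 fold change was 0.46 (standard error 0.12, adjusted p = 0.0392, and 0.0704 to 0.243 in the 6 fits without 1 library that lost it).

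Among the lower genes Mpp7 was the most stable. Its 4 peaks summed to 302, 348, 281 and 348 CPM in the WT libraries and 130, 171 and 147 in the KO libraries, a log2 fold change of -1.12 (standard error 0.14, adjusted p = 1.61e-08), though 73.7% of these counts lay in 1 peak. Smyd3, a lysine methyltransferase, held 11 peaks with 424, 417, 396 and 383 CPM in the WT libraries and 279, 285 and 303 in the KO libraries, a log2 fold change of -0.49 (standard error 0.12, adjusted p = 0.0214), with 7 of 8 tested peaks below 0. Akap6, a kinase anchor of the nuclear envelope, fell by 0.58 over 7 peaks (adjusted p = 0.0162), and Apobec3, a cytidine deaminase that restricts retroviruses, fell by 1.82 over 2 peaks (0.0192). Apobec3 had 42.0, 39.7, 44.9 and 42.4 CPM in the WT libraries and 12.1, 12.5 and 10.8 in the KO libraries. St6galnac3, a sialyltransferase, fell by 0.37 over 14 peaks with 8 of 10 below 0 (0.0392), and Zzz3 fell by 0.68 over 8 peaks (0.0365). Aig1, Arfgef1 and Fer fell by 0.69, 0.79 and 0.91 (each 0.0333). Fer holds 1 peak, so its sum is the internal-start peak that missed the threshold among all peaks (0.0534). Csrnp3, whose 2 peaks were each too low to be tested alone, fell by 2.06 (0.0333). The sums of Csrnp3 and Apobec3 passed the filter on low counts through the WT libraries alone. Leaving out 1 library ended the call in 3 to 6 fits for each of these genes other than Mpp7, with adjusted p from 0.0518 for Apobec3 to 0.323 for Arfgef1 and Fer.

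Values at the genes that define Treg cells are given as a description: with 0.0867% of all peaks called, the absence of a call among so few sites is not a result about them. Tested were 2 of 3 intragenic peaks in Foxp3, 6 of 8 in Il2ra, 3 of 3 in Ctla4, 15 of 19 in Ikzf2, 4 of 4 in Ikzf4, 3 of 4 in Il2rb and 5 of 5 in Tnfrsf9. None was called, with smallest adjusted p from 0.277 in Ikzf2 to 0.762 in Il2rb. Foxp3 encodes the lineage factor, and its highest peak (chromosome X, 7583850 to 7584440) had 55.7, 66.3, 68.6 and 60.1 CPM in the WT libraries and 69.6, 65.7 and 75.5 in the KO libraries. The groups overlapped (log2 fold change 0.17, standard error 0.14, adjusted p = 0.754). The highest peak of Ctla4, an inhibitory receptor, had 62.0, 63.0, 58.4 and 63.8 CPM in the WT libraries and 55.2, 54.4 and 51.2 in the KO libraries, without overlap (log2 fold change -0.20, standard error 0.15, adjusted p = 0.712). Ikzf2 encodes Helios, and its highest peak had 117, 110, 114 and 102 CPM in the WT libraries and 94.0, 99.9 and 94.9 in the KO libraries, also without overlap (log2 fold change -0.21, standard error 0.11, adjusted p = 0.57). For Tnfrsf9, the costimulatory receptor 4-1BB, the highest peak had 40.7, 43.3, 39.7 and 38.5 CPM in the WT libraries and 37.0, 26.5 and 25.3 in the KO libraries (log2 fold change -0.42, standard error 0.19, adjusted p = 0.482). WT and KO libraries were fully separated at 6 of 36 tested peaks of the Treg marker list (16.7%) and 15 of 80 of the core Treg list (18.8%), against 9.36% of all tested peaks, a description of lists that share genes. The share was 9.72% in the effector Treg list, 7.26% in the resting T cell list, 20% in the B cell list (2 of 10) and 0% in the T cell marker list (16 tested). An unadjusted p under 0.05 was reached by 5.56% of the Treg marker peaks and 10% of the core Treg peaks, against 9.47% of all peaks.

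Transcription factors with many intragenic sites are likewise described, with too few peaks for the absence of a call to set them apart from the 0.0867% of all peaks. Foxp1 had 46 tested peaks, 23 above and 23 below 0, and its summed counts had a log2 fold change of -0.01 (standard error 0.06, adjusted p = 0.958). Bach2 had 12 of 32 tested peaks above 0, Ets1 7 of 19, Lef1 11 of 14, Runx1 10 of 15 and Rora 7 of 17, and none passed. Prdm1, which encodes the effector factor Blimp-1, had its highest peak at the internal start printed above, with 62.0, 70.4, 71.1 and 66.9 CPM in the WT libraries and 60.4, 56.9 and 59.3 in the KO libraries (log2 fold change -0.19, standard error 0.14, adjusted p = 0.717). Tfeb, the main activator of lysosomal genes, held 2 peaks with log2 fold changes of -0.41 and -0.39 (smallest adjusted p 0.789), at 6.85 to 13.5 CPM in the WT libraries and 7.55 to 8.94 in the KO libraries for the higher one. Maf and Opa1 held no intragenic peak. Among the genes with the most sites, Wwox, Inpp4b, Akap13 and Lpp had log2 fold changes of summed counts between -0.04 and 0.13 (adjusted p from 0.445 to 0.93).

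Pathway lists, described by counts with no test of the list, held 1 call in all, that of Mpp7 in the list of cytoskeleton, adhesion and GTPase regulators (220 tested peaks, 110 above and 110 below 0). The median log2 fold change over all tested peaks was -0.00. In the list of T cell receptor and costimulation signalling, 123 of 215 tested peaks were above 0 with a median of 0.06, and 28 (13.0%) had an unadjusted p under 0.05. Its leading peak lay in Cblb, a ubiquitin ligase that restrains T cell activation, on chromosome 16 (52142846 to 52143488). That peak had 33.9, 37.9, 37.9 and 39.0 CPM in the WT libraries and 58.2, 57.5 and 58.8 in the KO libraries, without overlap (log2 fold change 0.65, standard error 0.16, adjusted p = 0.084). The core Treg list had 40 of 80 above 0 (median 0.01), the effector Treg list 30 of 72 (-0.12) and the resting T cell list 85 of 179 (-0.02). Their leading peaks lay in Ikzf2 (log2 fold change -1.02, adjusted p = 0.277), in Hopx, a homeodomain cofactor of effector Treg cells (-1.83, 0.259), and in Bcl2, which guards against cell death (0.36, 0.331).

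Lists of the organelles that the study is about were short and held no call, which is not read as a difference from the 0.0867% of all peaks. Lysosome and autophagy genes had 22 of 52 tested peaks above 0 (median -0.13), and their leading peak lay in Atg7, an enzyme of autophagosome formation (log2 fold change -1.55, adjusted p = 0.352). Mitochondrial dynamics, cristae and respiratory chain genes had 16 of 27 above 0 (median 0.16), led by Ndufa10, a complex I subunit (1.43, 0.268). Integrated stress response genes had 2 of 8 above 0 (median -0.31), led by Mthfd2, a mitochondrial folate enzyme (-0.63, 0.556). NF-kB, AP-1 and Nr4a genes had 20 of 44 above 0 (median -0.04), led by Jun (0.61, 0.197). Helper lineage and cytokine receptor genes had 72 of 134 (0.04), led by Runx1 (1.11, 0.167). Chromatin and DNA methylation regulators had 66 of 144 (-0.03), led by Chd7 (0.59, 0.304). The share with an unadjusted p under 0.05 ran from 0% in the stress response list to 13.0% in the receptor signalling list, on either side of the 9.47% of all peaks.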

How the data were processed

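ATAC-seq counts of 4 WT and 3 Opa1 KO libraries were analysed. What the authors deposited is 1 table of raw counts at each peak. Per the submitters' processing notes the build was mm10 and the tools were BWA 0.7.16, MACS2 2.1.1, Trimmomatic 0.36, SAMtools 1.9, bedtools 2.25.0 and Picard 2.9.4. How reads that map to several places and the transposase offset were treated is not stated there. Most counts per library were even (78.0% to 86.3%), as when both mates of a pair are counted. Positions are as deposited, and whether they count from 0 or 1 is not stated.

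Peaks were placed against a RefSeq gene table of GRCm38.p6 without strand or exons. Strand came from the start windows and was known for 17166 of 21511 peaks with 1 host gene. No genome was used here, so sequence features planned for all peaks were read at start windows only. The members, gene lists, tests and rule for named peaks were chosen with earlier results of these data known. The rule took every called peak, the 5 highest, the 5 genes with most peaks, the highest peak of 17 genes of Treg biology, the peak with the smallest p in each list, and up to 10 genes called on summed counts in each direction; other named items were chosen after their values were seen.

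All 50213 peaks entered 1 fit: edgeR 4.0.16 in R 4.3.3 with its robust quasi-likelihood test, filterByExpr (minimum count 10, total 15), TMM factors, Benjamini-Hochberg adjustment at 0.05 over 38041 peaks. Counts summed per gene, from peaks with 1 host, were fitted likewise, and every adjusted p is from edgeR unless another tool is named. Class shares were compared by exact permutation over 35 splits (SciPy 1.17.1). Both fits were tested on simulated data. Alternatives used DESeq2 1.42.0, limma 3.58.1, other scalings, filters, WT replicates 2 and 3 summed, a replicate block and each library left out. Python 3.11.15, pandas 2.3.3, NumPy 2.4.6 and matplotlib 3.10.9 were used.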

Additional observations from a re-analysis of the deposited data

Results flagged for a closer look

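A gap rule for single libraries within WT was applied to 102 values of the report, and chance flags about 1 in 20. It marked 3. The log2 ratio of intragenic to intergenic counts was 0.73 in WT replicate 1 and between 0.74 and 0.75 in the other WT libraries. The highest intragenic peak of Bach2 (from 32257879) had 85.3 CPM in WT replicate 2 and 67.4 to 70.2 CPM in the others. The summed intragenic counts of Cux1 had 176 CPM in WT replicate 2 and 224 to 227 in the others, and Cux1 was called higher in KO (log2 fold change 0.53, adjusted p = 0.037).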

How the results depend on the processing

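Of the 12 intragenic peaks called, 3 (Mpp7, the Nrip1 peak from 76337478 and D16Ertd472e) passed in every alternative, and 8 were lost in at least 1 fit that left out 1 library. The number called was 33 with counts halved, 24 under a minimum mean count of 20, 22 with limma-voom, 7 with the replicate block, 6 outside chromosome 16 and 6 to 14 with 1 library left out. Fewer peaks were tested with halved counts and the higher minimum; the cause of the other shifts was not tested. Genes called on summed counts, 32 in the main fit, were 56 with counts halved, 12 with DESeq2, 12 with the replicate block and 3 to 46 with 1 library left out. With total counts as the only scaling, 10 of 30 genes were higher in KO, against 17 of 32. The replicate number is only a shared number: deviations of intragenic peaks from their group means correlated at 0.02, 0.01 and -0.00 between libraries of the same number, and KO replicate 1 correlated best with WT replicate 4. The share of counts and the log2 ratio of intragenic to gene-end counts kept their sign in every alternative. With 1 library left out they ran from -0.358 to -0.514 percentage points and from -0.04 to -0.06. Of 1323 alternative values of single peaks and genes, 1034 kept direction and side of the threshold, 234 lost the call, 22 gained one and 33 changed sign, all of the last at values near 0.

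Changes of sign occurred in 10 uncalled peaks and 3 uncalled genes. With loess offsets, the log2 fold change was -0.019 for the Slc39a10 peak, -0.019 for the Ikzf4 peak and -0.032 for the Nrip1 end peak. Without a filter it was 0.00011 for Pcmtd1, 0.012 for Bach2 and 0.0096 for Gm33989. With WT replicates 2 and 3 summed it was 0.0086 for Bach2 and 0.037 for the Cd200 end peak, and with limma-voom 0.014 and 0.0069. The Il2rb peak had 0.026 with the replicate block, and Inpp4b had -0.0011 with total counts. With 1 library left out, values ran from -0.071 to 0.019 for Pcmtd1, -0.072 to 0.13 for Ikzf4, -0.17 to 0.081 for Il2rb, -0.040 to 0.064 for Bach2, -0.0069 to 0.16 for Ets1, -0.14 to 0.020 for the Foxp1 peak, -0.072 to 0.080 for Gm33989 and -0.14 to 0.12 for the Cd200 end peak. On summed counts they ran from -0.057 to 0.021 for Foxp1, -0.012 to 0.064 for Inpp4b and -0.0039 to 0.11 for Lpp.

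Depth limited the low sites: 6229 intragenic peaks were not tested, and the median standard error of a log2 fold change was 0.52 in the lowest class by level and 0.18 in the highest. Gene assignment is by position only. The gene table gives no exons, so introns and exons were not told apart.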
